A study of Homo sapiens with 6 samples.

Results

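The target genes of NRF2, a transcription factor that switches on genes of antioxidant defense and drug metabolism, were examined in A549 cells. They were 41 genes taken by symbol, by a rule that uses no measured value, and all 41 were found among the 58676 genes listed in the deposited table. The list was made with earlier results of these data known, so that counts over it are descriptions only. Total RNA of A549 Rec and A549 MOCK in 2D culture was sequenced with 3 replicates each (hereafter Rec and MOCK). A549 is a widely used line from a human lung adenocarcinoma, and it does not express recoverin, a calcium-binding protein of photoreceptors. A549 Rec carried a plasmid with human recoverin cDNA and A549 MOCK carried the empty plasmid, and both were cultured for 6 days in the same serum-containing medium with methylcellulose. The study's methods describe retroviral transfer and puromycin selection, and whether each line was 1 clone or a pool is not given in the sources used here. The labels do not say that the replicates were separate cultures, so that p-values measure the spread between these libraries, which may be technical.

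NRF2, the product of NFE2L2, is normally held in the cytoplasm and sent for degradation by KEAP1. When KEAP1 is modified by reactive compounds or lost by mutation, as is known for A549, NRF2 accumulates, pairs with a small MAF protein and binds the antioxidant response element in front of its targets. These targets make glutathione, keep thioredoxin reduced, supply NADPH, store iron and convert quinones, aldehydes and drugs into less reactive products. The mutation of KEAP1 was not measured here.

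The antioxidant response element was looked for as TGACNNNGC on both strands in the RefSeq promoters of GRCh38.p14, from 250 bases before to 50 bases after each gene start. A promoter was found for 32 of the 41 targets, and 11 of them (34.4%) held the motif, against 16.1% of all 27305 genes with a promoter. By single windows, 12 of 45 windows of the targets (26.7%) held it, against 13.3% of all 35116 windows. As the list was made of known NRF2 targets, a higher share was likely in advance and is a description only. The 14 sites of the 11 genes are represented below by 1 site each from 7 genes of different roles, with the motif in capitals and 10 bases on either side, written 5′ to 3′ on the strand that carries the motif.

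GCLM (glutathione synthesis), chr1:93909446-93909474, plus strand: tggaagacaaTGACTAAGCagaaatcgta

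TXNRD1 (thioredoxin reductase), chr12:104215670-104215698, plus strand: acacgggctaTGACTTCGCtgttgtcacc

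PGD (NADPH supply), chr1:10398853-10398881, minus strand: agcacctagaTGACATTGCcccggcgagg

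ME1 (NADPH supply), chr6:83431170-83431198, minus strand: tctcctgccaTGACTCAGCgcttctcgca

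PIR (pirin), chrX:15493289-15493317, plus strand: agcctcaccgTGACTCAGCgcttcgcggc

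CBR1 (carbonyl reduction), chr21:36069855-36069883, minus strand: ccagctagccTGACTTTGCagaacccgca

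EPHX1 (epoxide hydrolysis), chr1:225825266-225825294, plus strand: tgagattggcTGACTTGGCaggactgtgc

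The sites of ME1 and PIR shared all 9 letters, TGACTCAGC, which were held by 0.561% of all windows on either strand and by no other target. This motif with all 9 letters fixed was chosen after the sites had been seen. ME1 carried its site 137 bases before the start, and PIR carried its site 27 bases after the start. CYP4F11, IDH1, MGST1 and UGT1A6 were the remaining genes with a match. The 11 targets with the motif had a median of their mean TPM of 124, and the 21 targets without it in the window had a median of 477. A match is a description of the letters and does not show that NRF2 was bound.

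Levels were given by the authors as TPM, in which the reads of a gene are divided by its length and each library sums to 1000000. Genes can thus be compared with each other only as far as this length fits the transcripts present, which was not tested. AKR1C2, for example, had 348441 reads over the 6 libraries against 124144 for AKR1B10, but a lower mean TPM. Reads recovered from the values numbered 15183490 to 18572167 per library, and 32 of the 41 targets had at least 1000 reads in every library. RCVRN, the gene of recoverin, was listed at 0 in MOCK and at a TPM of 322 to 339 in Rec. Mitochondrially encoded genes held 13.3 to 17.3% of the TPM in replicates 1 and 2 of both groups, and 34.5% in MOCK replicate 3 and 26.9% in Rec replicate 3. The TPM of all remaining genes was scaled down accordingly in replicate 3, and values are therefore also given as rescaled TPM, in which mitochondrially encoded genes were left out and each library again sums to 1000000. The epithelial markers KRT8, KRT18, KRT7 and CDH1 had a TPM of at least 109 in every library, whereas KRT19 stayed at or under 0.325 and EPCAM at or under 2.98. The 10 markers of blood, endothelium and fibroblasts summed to a TPM of 3.96 to 6.79 in MOCK and 4.96 to 6.90 in Rec, and CD3E and COL1A2 were at 0 throughout.

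Many of the targets, but not all, stood among the most abundant transcripts of these cells. By the median rank over the 6 libraries among all listed genes, 3 targets were within the 10 highest, 11 within the 100 highest, 24 within the 1000 highest and 34 within the 5000 highest. For comparison, 19648 genes had a TPM above 0 in all 6 libraries. Together, the 41 targets held 8.63, 8.23 and 5.63% of all TPM in the MOCK libraries and 8.27, 8.71 and 6.89% in the Rec libraries, both in the order of the replicate numbers, which is kept for all values below. On rescaled TPM, these shares were 9.99, 9.75 and 8.60% in MOCK and 10.0, 10.1 and 9.43% in Rec. The shares were lowest in replicate 3 of both groups on either scale, and the groups overlapped.

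**Figure D1:**
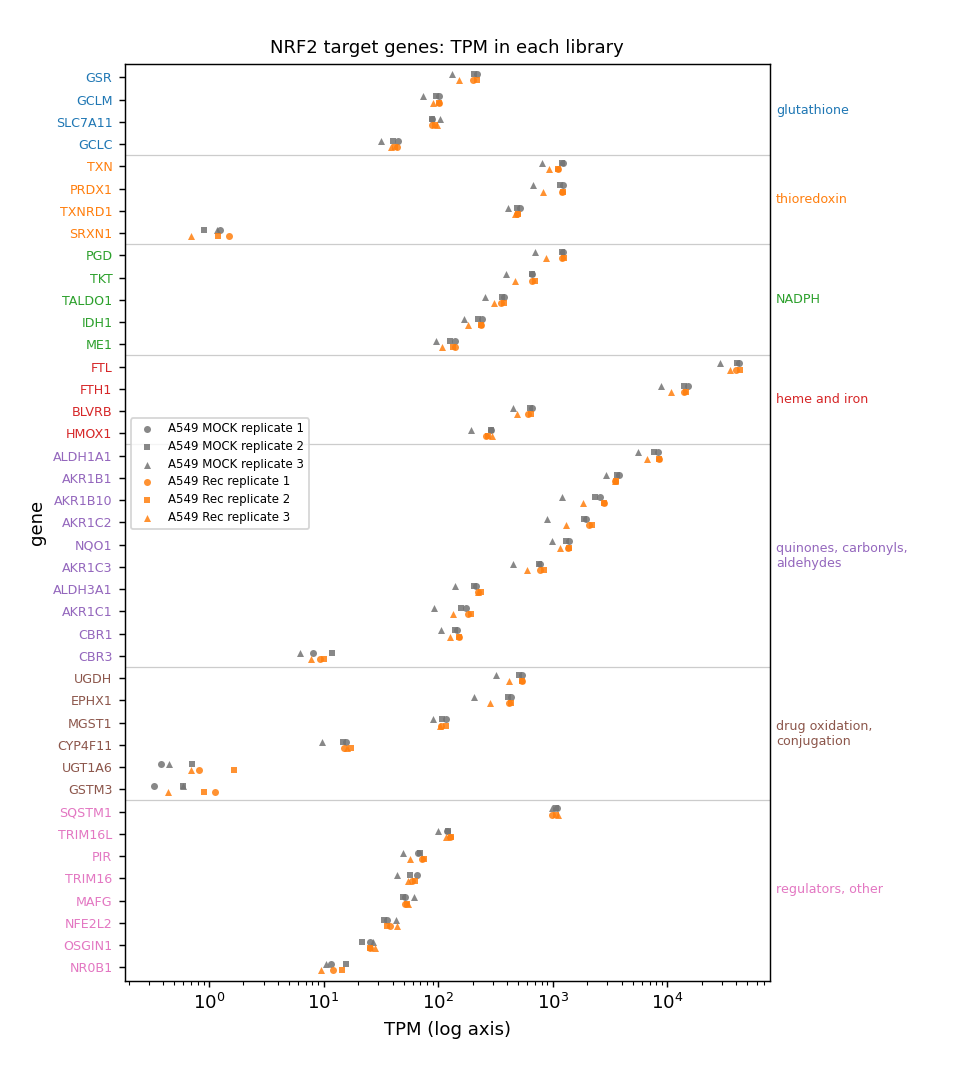
TPM of the 41 NRF2 target genes in each library (log axis, gray for A549 MOCK, orange for A549 Rec, 1 marker shape per replicate), ordered by role and by mean level. The targets run from FTL, with a mean TPM of 38394, to GSTM3, with a mean of 0.669, and in most of them the replicate 3 libraries (triangles) lie to the left.

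Heme breakdown and iron storage had the highest members. FTL, which encodes the light chain of ferritin, the protein that stores iron (chromosome 19 of GRCh38 from 48965301 to 48966878), had the highest mean TPM of all genes. Its TPM was 42391, 40845 and 28850.4 in MOCK and 40045, 43294 and 34939 in Rec. FTL was low in replicate 3 of both groups, and the groups overlapped. FTH1, the heavy chain of ferritin (chromosome 11 from 61959718 to 61967660), was in the ninth place of all genes. Its TPM was 15106, 14111 and 8732 in MOCK and 13956, 14547 and 10764 in Rec, again with replicate 3 lowest and with overlapping groups. Both ferritin chains have pseudogenes, and 8.3% of the 100-base stretches of FTH1 and 3.4% of those of FTL also lay in other listed genes. BLVRB, which reduces biliverdin, had a TPM of 581 ± 113 in MOCK and 580.1 ± 78.3 in Rec (SD, n = 3 each). HMOX1, the inducible heme oxygenase, had 258 ± 55.7 and 276 ± 15.3 (SD, n = 3 each), and it was the lowest of this group. FTL and FTH1 held most of the summed TPM, and without them the remaining 39 targets held 2.88, 2.73 and 1.87% in MOCK and 2.87, 2.93 and 2.32% in Rec.

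The enzymes that reduce or oxidize quinones, carbonyls and aldehydes were the second most abundant group, with 7 of 10 members above a mean TPM of 200. ALDH1A1, an aldehyde dehydrogenase that also makes retinoic acid (chromosome 9 from 72900662 to 73080442), stood in the 13th place of all genes by mean TPM. Its TPM was 8251, 7586 and 5522 in MOCK and 8465, 8439 and 6704 in Rec. AKR1B1, the aldose reductase (chromosome 7 from 134442350 to 134459284), had 3753, 3667 and 2897 in MOCK and 3462, 3575 and 3471 in Rec. Both genes overlapped between the groups, and AKR1B1 varied least in Rec. AKR1B10, a related reductase of retinal and other aldehydes, had a mean TPM of 2257 over the 6 libraries. AKR1C2, a reductase of ketosteroids, had 1709, and NQO1, the quinone reductase often used to report NRF2 activity (chromosome 16 from 69706996 to 69726951), had 1267. AKR1C3 followed at 701, ALDH3A1 at 206, AKR1C1 at 156 and CBR1 at 137. CBR3, a carbonyl reductase, was at 8.89 and thus far below the others.

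The highest members of the thioredoxin and NADPH groups were at similar levels, with a mean TPM of 1064 for TXN and 1078 for PGD. TXN, the small thiol protein thioredoxin, had a TPM of 1234, 1199 and 802 in MOCK and 1112, 1116 and 921 in Rec. PRDX1, a peroxidase that takes its electrons from thioredoxin, had 1224, 1167 and 674 in MOCK and 1200.1, 1239.6 and 825 in Rec. TXN and PRDX1 were lowest in replicate 3 of each group, and the groups overlapped. TXNRD1, which reduces thioredoxin with NADPH, had a mean of 479. SRXN1, which repairs overoxidized peroxiredoxins, was at only 1.12, with 10 to 20 reads per library, and it is named here after its values were seen. Its level was uncertain, since 90.7% of its exon bases are shared on the same strand with AL121758.1, which itself was listed at 0.14 to 0.673.

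PGD, an NADPH-producing enzyme of the pentose phosphate pathway, had a TPM of 1226, 1197 and 707 in MOCK and 1210.5, 1260.2 and 869 in Rec. TKT, the transketolase of the same pathway, had 662, 654 and 395 in MOCK and 654, 702 and 472 in Rec. In both genes replicate 3 was again lowest and the groups overlapped. TALDO1, the transaldolase, had a mean of 339, IDH1, the cytosolic isocitrate dehydrogenase, had 215 and ME1, the cytosolic malic enzyme, had 124.

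The glutathione group was lower, with mean TPM from 40.1 for GCLC to 187 for GSR. GSR, which recycles oxidized glutathione, had a TPM of 216, 205 and 133 in MOCK and 202, 216 and 151 in Rec. GCLM, the modifier subunit of the enzyme that starts glutathione synthesis, had 102, 95.5 and 74.0 in MOCK and 102, 101 and 90.7 in Rec. Replicate 3 was lowest in both genes, and the groups overlapped. SLC7A11, which imports cystine, had a mean of 93.8, and GCLC is the catalytic subunit of the enzyme completed by GCLM.

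Drug oxidation, hydrolysis and conjugation covered a wide range of levels. UGDH, which makes UDP-glucuronic acid for conjugation, had a TPM of 537, 505 and 323 in MOCK and 544, 535 and 418 in Rec. EPHX1, the microsomal epoxide hydrolase, had 429.5, 409 and 204 in MOCK and 414, 429 and 282 in Rec. Both were lowest in replicate 3 and overlapped between groups. MGST1, a membrane-bound glutathione transferase, had a mean of 107, and CYP4F11, a fatty acid hydroxylase of the cytochrome P450 family, had 14.8.

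UGT1A6, which conjugates phenols with glucuronic acid, and GSTM3, a glutathione transferase, stood at the bottom and did not pass the filter on low TPM. UGT1A6 had a TPM of 0.383, 0.705 and 0.447 in MOCK and 0.812, 1.65 and 0.696 in Rec, with 10 to 50 reads per library. The groups just overlapped, since Rec replicate 3 lay below MOCK replicate 2. The ratio of the group means was 2.06 (two-sided exact permutation test, p = 0.2). GSTM3 had a TPM of 0.334, 0.598 and 0.60 in MOCK and 1.14, 0.901 and 0.439 in Rec, with 8 to 27 reads per library. Its groups overlapped, and the ratio of the group means was 1.62 (two-sided exact permutation test, p = 0.3). With 3 libraries against 3, this test cannot give a p below 0.1. The exons of UGT1A6 shared 36.2% of their bases on the same strand with other UGT1A genes, so that its reads may not all be its own.

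Among the regulators, NFE2L2 itself was not abundant. Its TPM was 35.5, 33.7 and 43.2 in MOCK and 38.4, 36.0 and 43.7 in Rec, and the groups overlapped with replicate 3 highest in both. KEAP1, its inhibitor, had 65.3, 67.0 and 43.6 in MOCK and 58.1, 65.8 and 53.0 in Rec, with replicate 3 lowest in both and the groups overlapping. SQSTM1, the autophagy receptor p62 that binds KEAP1, was the highest of this group with 1095, 1076 and 992 in MOCK and 986, 1062 and 1101 in Rec. TRIM16L, a relative of the ubiquitin ligase TRIM16, had 120.5, 121 and 100.1 in MOCK and 126, 129 and 117 in Rec. SQSTM1 and TRIM16L overlapped between the groups. PIR, an iron-binding nuclear protein, had a mean of 65.1, TRIM16 57.2, and MAFG, a small MAF partner of NRF2, 53.7. OSGIN1, an oxidative stress growth inhibitor, had 25.5, and NR0B1, a nuclear receptor without a DNA-binding domain, had 12.3. TRIM16L shared 25.3% of its 100-base stretches with TRIM16 and an overlapping gene, which limits the assignment of their reads. NFE2L2 shared 13.6% of its exon bases on the same strand with AC019080.1 and 15.2% of its 100-base stretches with that gene. Counting both strands, other listed genes overlapped with 71.1% of the exon bases of CBR3, 63.2% of FTH1, 38.4% of NFE2L2, 29.8% of PRDX1, 22.4% of SQSTM1, 19.4% of NQO1, 18.9% of CBR1 and 12.7% of UGDH. With the strand setting not given, the reads of these genes and their partners cannot be told apart.

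A chosen relative was set beside 22 of the targets, which gives a scale within a gene family, and the remaining 19 targets had none. For 20 of the 22 pairs the relative was above 0, and in 17 of these 20 the NRF2 target was higher than its relative in all 6 libraries. NQO1 had a TPM of 1384, 1310.1 and 976 in MOCK and 1369, 1400.2 and 1166 in Rec, whereas its relative NQO2 had 18.02, 18.4 and 14.3 in MOCK and 16.9, 18.1 and 16.3 in Rec. The gap was wider for ALDH1A1, since ALDH1A2 did not exceed a TPM of 0.198 in any library. IDH1 and the mitochondrial IDH2 were close, with ranges of 169 to 240.5 and 103 to 191. The target was lower than its relative in 3 pairs, which were GSTM3 with GSTM4, MAFG with MAFK, and NFE2L2 with NFE2L1. NFE2L1, a related factor that controls proteasome genes, had a TPM of 208, 198 and 172 in MOCK and 189, 203 and 184 in Rec, all above those of NFE2L2. TKTL1 and HMOX2, the relatives of TKT and HMOX1, were listed at 0 in all libraries, and these 2 pairs were not counted. Of the 100-base stretches of HMOX2, 57.0% also lie on alternate sequences of the genome, and its value at 0 is given without a fold.

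The comparison of Rec with MOCK asked whether recoverin went along with a different level of these genes. The RNA came from whole cultures, in which fewer cells with a transcript and less of it per cell cannot be told apart. None of the 39 tested targets passed the test: with limma on log2(TPM + 1) and Benjamini-Hochberg adjustment, 0 had an adjusted p under 0.05, against 0.00574% of the 17408 tested genes. With the unadjusted p under 0.05, the number was also 0, against 2.06% of all tested genes. On rescaled TPM, 0 targets had an adjusted p under 0.05, against 0.00556% of 17999 tested genes, and 1, ALDH3A1, had an unadjusted p under 0.05, against 2.53%. The differences were small, and the largest was that of AKR1B10, with a log2 difference of 0.33 (95% interval -0.47 to 1.14, adjusted p = 1.00 from limma). All 39 intervals contained 0, and 36 lay within -1 and 1, so that for these 36 a 2-fold change on the log2(TPM + 1) scale was outside the 95% interval. The 3 others were FTL, AKR1C2 and AKR1B10, and on rescaled TPM the intervals of all 39 lay within -1 and 1.

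Of the 39 targets, 33 had a higher mean log2 value in Rec and 6 had a lower one, where 56.6% of all tested genes were higher. The median log2 difference was 0.10 for the targets and 0.02 for all tested genes. On rescaled TPM, 31 of 39 targets were higher, against 42.5% of all tested genes, with medians of 0.06 and -0.02. The 6 lower genes on deposited TPM were SLC7A11, TXN, SRXN1, MAFG, SQSTM1 and NR0B1, of which NR0B1 was the lowest with a log2 difference of -0.06. The count turned when MOCK replicate 3, the library with the highest mitochondrial share, was left out, as 30 of the 39 targets were then lower in Rec, with a median difference of -0.05, while 31.03% of all tested genes were higher, with a median of -0.07. In that fit the replicate 3 library of Rec had no counterpart. Without both replicate 3 libraries, 27 of 39 targets were higher, with a median of 0.04, against 45.3% of all tested genes, with a median of -0.01.

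**Figure D2:**
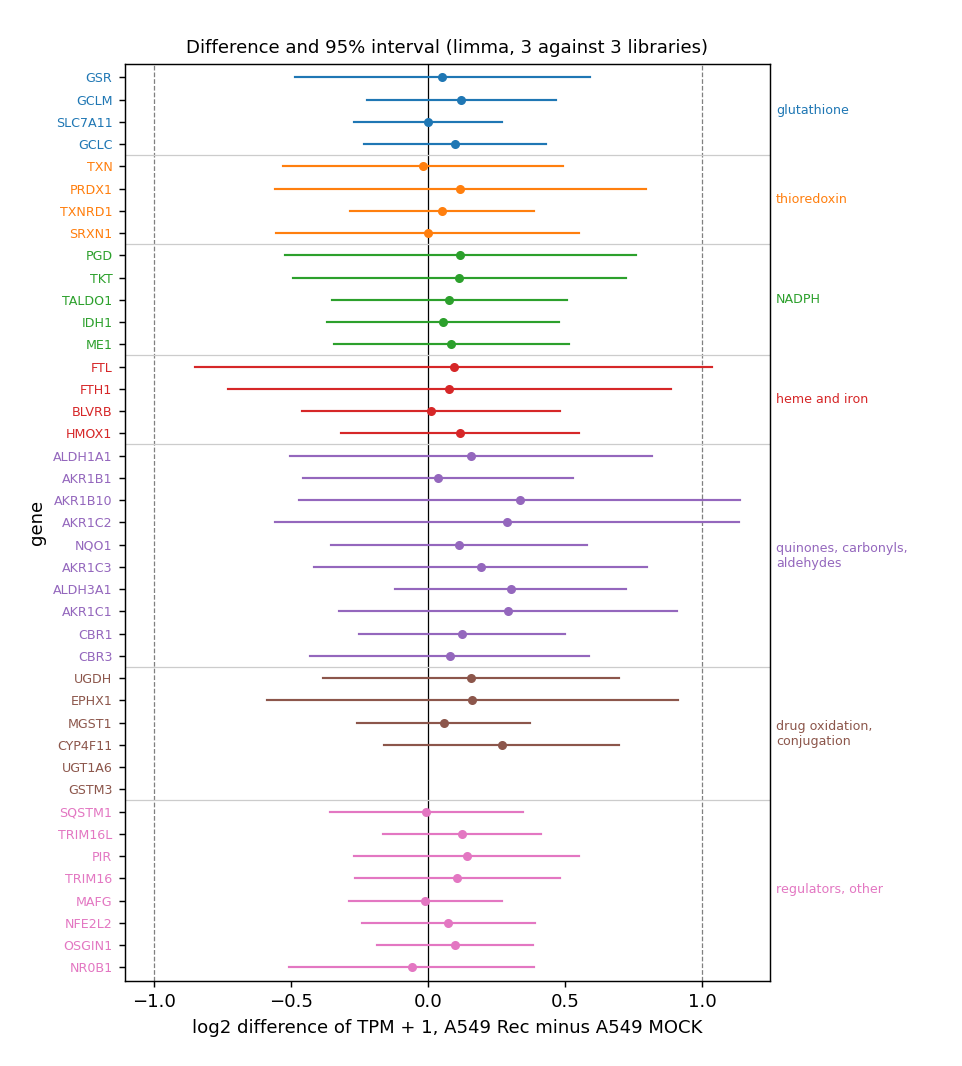
Log2 difference of TPM + 1 between A549 Rec and A549 MOCK for the 39 tested targets (points) with 95% intervals from limma (lines, 3 against 3 libraries), colored by role, with dashed lines at -1 and 1. All 39 intervals cross 0, and those of FTL, AKR1C2 and AKR1B10 reach past 1, while UGT1A6 and GSTM3 were not tested.

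By role, the median log2 difference was 0.17 for the 10 enzymes of quinones, carbonyls and aldehydes, of which 10 were higher in Rec. It was 0.16 for the 4 tested drug-metabolizing enzymes, of which 4 were higher. It was 0.09 for NADPH supply (5 of 5 higher), 0.08 for heme and iron (4 of 4 higher) and 0.08 for glutathione (3 of 4 higher). The thioredoxin group had a median of 0.02, with 2 higher and 2 lower, and the regulators had 0.09, with 5 higher and 3 lower. On rescaled TPM, the median was 0.13 for quinones, carbonyls and aldehydes (9 higher) and 0.11 for drug metabolism (4 higher). For NADPH supply it was 0.04 (5 higher), for heme and iron 0.04 (3 higher) and for glutathione 0.03 (3 higher). On that scale, the thioredoxin group had -0.02 (2 higher) and the regulators had 0.04 (5 higher). NFE2L2 had a log2 difference of 0.07 (adjusted p = 1.00 from limma). AKR1B1 had 0.04 on deposited TPM and -0.01 on rescaled TPM, so that its sign depended on the scaling.

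Since libraries with the same number varied together, Rec was also compared with MOCK within each replicate number. Of the 39 tested targets, 13 were higher in Rec in all 3 pairs on deposited TPM, against 13.1% of all tested genes, and 0 were lower in all 3 pairs, against 9.66%. On rescaled TPM, 18 were higher in all 3 pairs, against 10.7%, and 2 (BLVRB and SQSTM1) were lower in all 3, against 15.4%. On both scales, 11 targets were higher in all 3 pairs, which were AKR1C1, AKR1C2, AKR1C3, AKR1B10, ALDH1A1, ALDH3A1, CBR1, ME1, PIR, TRIM16L and UGDH. The first 7 of these belong to the enzymes of quinones, carbonyls and aldehydes, a group with 10 tested members. The difference was largest in replicate 3 for 14 of the 18 targets on rescaled TPM. The shares of all tested genes were not counted for both scales together or for the largest difference, so that these 2 counts have no scale.

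**Figure D3:**
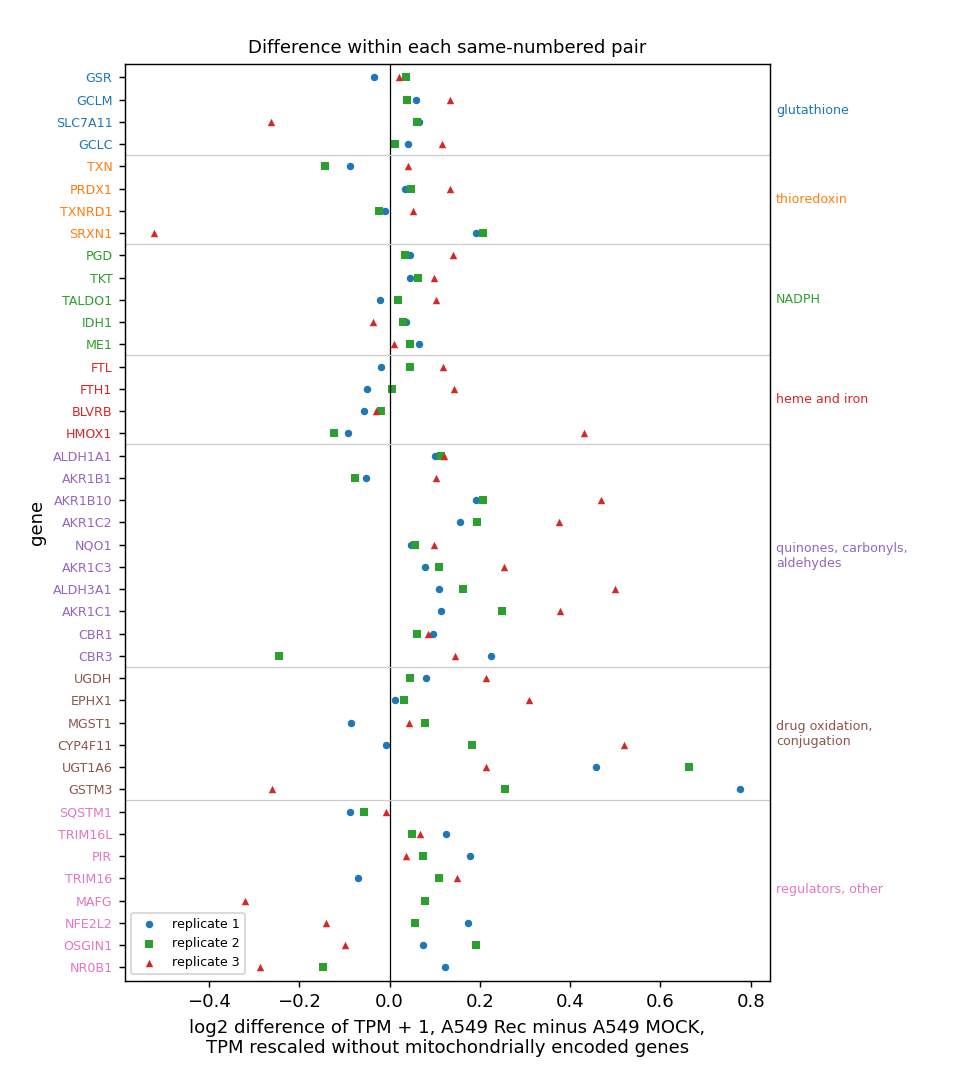
Log2 difference of rescaled TPM + 1 between A549 Rec and A549 MOCK within replicates 1, 2 and 3 (circles, squares and triangles) for the 41 targets. For the AKR1C genes, AKR1B10, ALDH1A1 and ALDH3A1 all 3 points lie to the right of 0, with the point of replicate 3 farthest to the right.

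When limma was run with a replicate block, 1 target, AKR1C1, had an unadjusted p under 0.05, against 4.11% of all tested genes, and 0 had an adjusted p under 0.05, against 0.00574%. With the block on rescaled TPM, 6 of 39 targets had an unadjusted p under 0.05, against 5.08% of all tested genes, and all 6 were higher in Rec, against 2.04%. With an adjusted p under 0.05 there were 0, against 0.00556%, and the lowest adjusted p of a target was 0.881 in limma. The 6 genes were AKR1C1, AKR1C2, AKR1C3, AKR1B10, ALDH1A1 and ALDH3A1, and no target of another role was among them. Apart from AKR1C1 and ALDH3A1, these genes are named for this result after their values were seen.

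ALDH3A1, an aldehyde dehydrogenase of fatty and aromatic aldehydes (chromosome 17 from 19737984 to 19748943), was the only tested target whose groups did not overlap on deposited TPM, against 2.47% of all tested genes that were higher in Rec without overlap. Its TPM was 214, 204 and 140.3 in MOCK and 221, 234 and 222 in Rec. All Rec libraries were above all MOCK libraries, and MOCK replicate 3 was far below the rest. The log2 difference was 0.30 with a standard error of 0.18 (limma, adjusted p = 1.00), and the exact permutation test gave a two-sided p of 0.1, the smallest that the design allows. Without MOCK replicate 3, the log2 difference was 0.11. On rescaled TPM, the level was 248, 242 and 214 in MOCK and 268, 271 and 304 in Rec.

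AKR1C1, a reductase of progesterone and aldehydes (chromosome 10 from 4963253 to 4983283), had a TPM of 175, 158 and 92.9 in MOCK and 182, 193 and 135 in Rec. The groups overlapped through the low replicate 3 of Rec, and every pair was higher in Rec. Its log2 difference was 0.29, with a standard error of 0.26 without the block and 0.11 with the block (unadjusted p = 0.0389, adjusted p = 0.998 from limma with the block). Without MOCK replicate 3, the log2 difference of AKR1C1 was 0.013. AKR1C2, its close neighbor (chromosome 10 from 4987400 to 5018031), had a TPM of 1941, 1859 and 898 in MOCK and 2069, 2186 and 1300.2 in Rec. It was lowest in replicate 3 of both groups and higher in Rec in every pair. AKR1B10 (chromosome 7 from 134527592 to 134541408) behaved likewise, with 2565, 2342 and 1199 in MOCK and 2802, 2779.7 and 1852 in Rec.

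AKR1C3, which makes testosterone and prostaglandins, had 772, 762 and 449 in MOCK and 780.3, 845 and 597 in Rec. AKR1C1, AKR1C2 and AKR1C3 are near-identical in places, and 13.6% of the 100-base stretches of AKR1C1, 20.1% of those of AKR1C2 and 2.0% of those of AKR1C3 lay in other genes. Their reads may therefore be split between them. AKR1C1 made up 5.68 to 6.63% of the sum of the 3 genes in the 6 libraries, and this sum was higher in Rec in each pair, with a rescaled TPM of 3342, 3294 and 2199 in MOCK and 3665, 3719 and 2781 in Rec.

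**Figure D4:**
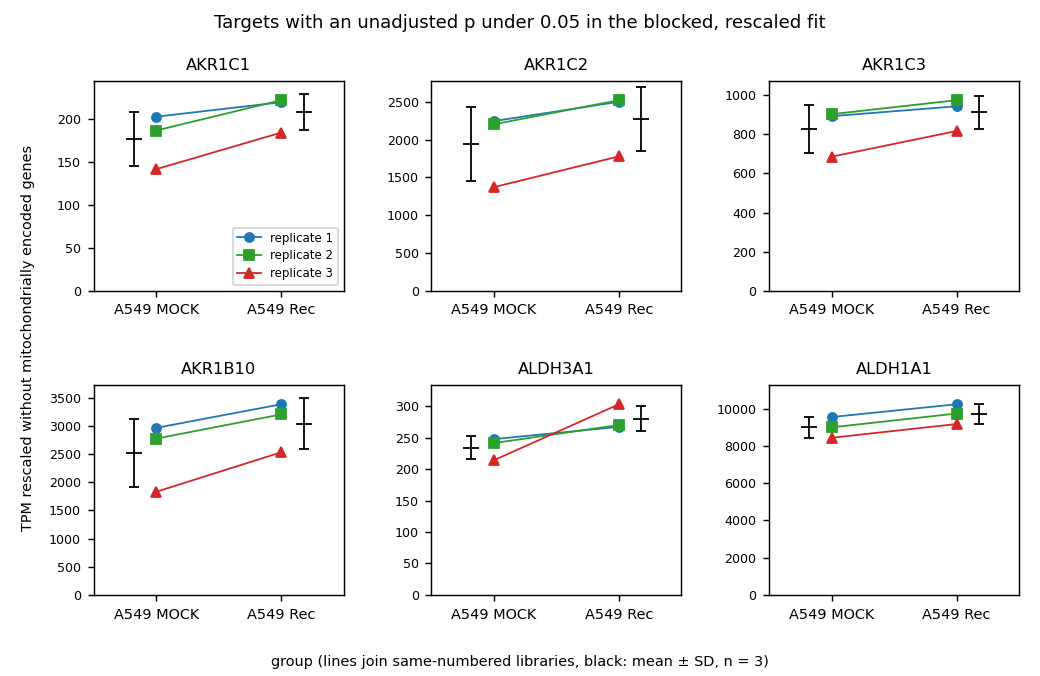
Rescaled TPM of 6 enzymes of carbonyls and aldehydes in A549 MOCK and A549 Rec, with lines joining same-numbered libraries and black bars for the mean ± SD (n = 3). Each line rises from A549 MOCK to A549 Rec, and replicate 3 is the lowest line in all panels except at ALDH3A1 in A549 Rec, where it is the highest with 304.

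On rescaled TPM, 2 tested targets had groups without overlap, ALDH3A1 and CBR1, against 2.78% of all tested genes that were higher in Rec. CBR1, a carbonyl reductase of quinones and prostaglandins, had a rescaled TPM of 170.4, 168 and 163 in MOCK and 182, 175 and 173 in Rec. UGT1A6, which was not tested, did not overlap on this scale either, with 0.443, 0.836 and 0.683 in MOCK and 0.981, 1.91 and 0.953 in Rec.

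After the values had been seen, limma with voom weights was also run on the recovered reads without mitochondrially encoded genes. Without the block, 0 targets had an adjusted p under 0.05, against 0.00467% of the 21423 tested genes, and 2 (ALDH3A1 and UGT1A6) had an unadjusted p under 0.05, against 1.95%. With the replicate block, 3 of 41 targets had an adjusted p under 0.05, against 0.0654% of all tested genes, and 12 had an unadjusted p under 0.05, against 4.85%. The first 3 were AKR1C2 with a log2 difference of 0.24 (adjusted p = 0.0372), AKR1B10 with 0.28 (adjusted p = 0.0451) and ALDH1A1 with 0.12 (adjusted p = 0.0451), all from voom. All 3 were higher in Rec in 3 of 3 pairs. In limma on deposited or rescaled TPM, with or without the block, the adjusted p of these genes was at least 0.881, so that the call was made by 1 of the fits only. All tested genes in voom needed only 10 reads over the 6 libraries, whereas 32 of the 41 targets had at least 1000 reads in every library. The shares were not compared at equal depth, and the block left few residual degrees of freedom.

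Replicate 3 stood apart from replicates 1 and 2 in many targets. On rescaled TPM, 22 of the 39 tested targets were lower in replicate 3 than the mean of replicates 1 and 2 in both groups, against 26.0% of all tested genes. AKR1C2 had a ratio of replicate 3 to this mean of 0.616 in MOCK and 0.708 in Rec, and AKR1B10 had 0.638 and 0.769. All 5 genes of NADPH supply were lower in replicate 3 in both groups. In contrast, 9 targets, all of them tested, were higher in replicate 3 in both groups, which were SLC7A11, TXNRD1, AKR1B1, MGST1, NFE2L2, MAFG, SQSTM1, OSGIN1 and TRIM16L. The share of all tested genes that were higher in replicate 3 in both groups was not counted, so that this number has no scale. NFE2L2 had a ratio of 1.63 in MOCK and 1.36 in Rec, and SLC7A11 had 1.54 and 1.22. The mitochondrial share of the libraries moved with these values, and its part in them was not tested beyond the rescaling.

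**Figure D5:**
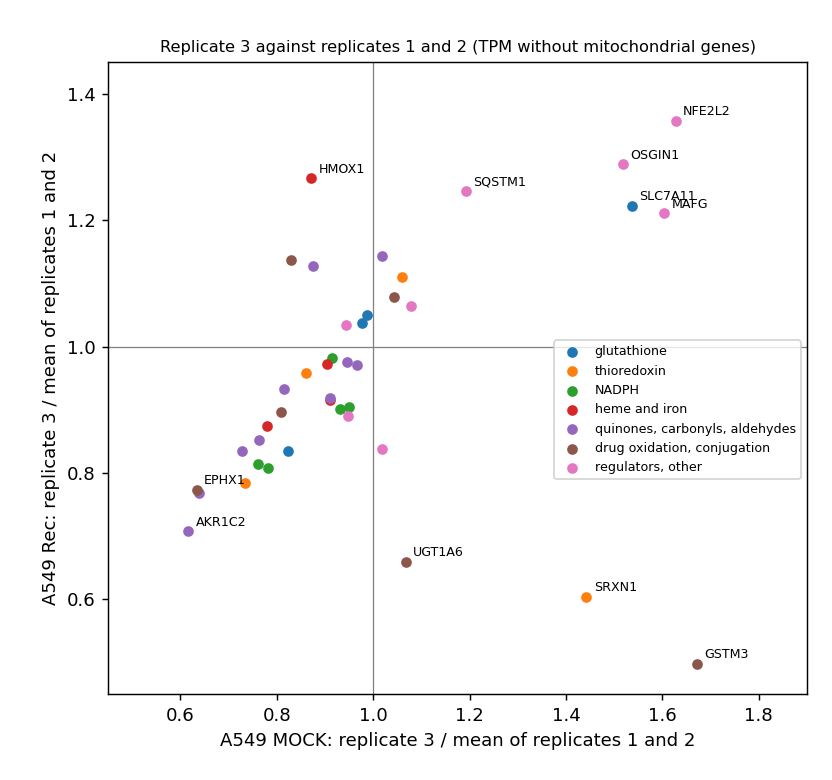
Ratio of replicate 3 to the mean of replicates 1 and 2 on rescaled TPM, in A549 MOCK (horizontal) and A549 Rec (vertical), with 1 point per target, colored by role. The 22 points in the lower left quadrant were lower in replicate 3 in both groups, and the 9 in the upper right quadrant, with NFE2L2 at 1.63 and 1.36, were higher in both.

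The other genes of the pathway were taken from lists of 62 genes, of which 55 were tested. With limma, 0 had an adjusted p under 0.05 and 0 had an unadjusted p under 0.05, against 2.06% of all tested genes for the latter. Of the 55 genes, 37 (67.3%) were higher and 18 lower in Rec, against 56.6% of all tested genes that were higher. On rescaled TPM, 29 of the same 55 genes (52.7%) were higher and 26 lower, against 42.5%. GSTA1, a glutathione transferase tested on rescaled TPM only, was not counted. It had a rescaled TPM of 0.902, 0 and 0.267 in MOCK and 1.19, 1.55 and 1.27 in Rec. Its log2 difference was 0.80 (unadjusted p = 0.0625, adjusted p = 0.931 from limma with the block). Of the 13 tested genes that control NRF2, such as KEAP1, CUL3 and BACH1, 8 were higher and 5 lower on deposited TPM, with a median log2 difference of 0.03. Of the 21 tested antioxidant and NADPH genes, 16 were higher and 5 lower. Of the 21 tested drug metabolism and efflux genes, 13 were higher and 8 lower.

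With the replicate block, 1 of the 55 (1.82%) had an unadjusted p under 0.05, against 4.11% of all tested genes, and with the block on rescaled TPM there were 3 (5.45%), against 5.08%. These 3 genes, of which 1 was higher and 2 were lower in Rec, are named after their values had been seen. GPX2, a glutathione peroxidase, was the one with both fits. It had a TPM of 188, 181 and 71.0 in MOCK and 248, 258 and 169.8 in Rec, and the low replicate 3 of Rec overlapped with MOCK. Its log2 difference was 0.72 on deposited TPM (unadjusted p = 0.00728, adjusted p = 0.998 from limma with the block). CYP1B1, a cytochrome P450 of hydrocarbons and estrogens, had a TPM of 133, 125 and 139.6 in MOCK and 112, 119 and 122 in Rec. ALDH1A3, an aldehyde dehydrogenase that makes retinoic acid like ALDH1A1, had 5.95, 5.24 and 5.40 in MOCK and 4.34, 3.56 and 4.87 in Rec. On deposited TPM, all Rec libraries of both genes were below all MOCK libraries, against 2.69% of all tested genes that were lower in Rec without overlap. On rescaled TPM the groups of both genes overlapped. There, Rec replicate 3 (166 for CYP1B1 and 6.66 for ALDH1A3) lay above MOCK replicate 2 (148 and 6.21). With the block on rescaled TPM, the log2 difference was -0.22 for CYP1B1 (unadjusted p = 0.0159, adjusted p = 0.931 from limma) and -0.37 for ALDH1A3 (unadjusted p = 0.0331, adjusted p = 0.931 from limma).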

How the data were processed

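The sample titles gave the group and the sample descriptions gave the replicate number of each library, and 0 columns of values were left unmatched. The titles of the replicate 3 libraries carried no number, so that their number rests on the descriptions alone. The authors trimmed the paired reads with Trimmomatic 0.38, mapped them with HISAT2 2.1.0, counted them per gene with featureCounts 1.6.3 and deposited the values as TPM. The submitters' processing notes name a mouse build, whereas the study's methods and the deposited gene coordinates are those of human GRCh38. The strand setting, the handling of multi-mapping reads and the annotation release are not given in the sources used here.

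The 41 genes and all lists were chosen with earlier results of these data known. For the group comparison, log2(TPM + 1) values were tested with limma-trend (limma 3.58.1, R 4.3.3). Genes needed a TPM of 1 or more in 3 or more libraries, which left 17408, with Benjamini-Hochberg adjustment over all of them. A fold change on this scale understates that of low genes. In simulated data for this comparison with 17408 genes, 63 of 100 genes changed 3-fold and 8 of 100 genes changed 1.5-fold were called, with 5 others.

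Values in every library are given for the 2 highest targets of each role, those with an unadjusted p under 0.05 without or with the block, those whose groups did not overlap or that differed by at least 1.5-fold, those under a TPM of 1 in at least 3 libraries, NFE2L2, KEAP1 and the described pairs of relatives, of which some are given only by range or name. Reads were recovered from the TPM by finding the gene length that made all values whole within 0.01, for 29900 genes. For 14535 of them it was the exon length of GENCODE 44. As the length was chosen for this, wholeness does not test the recovery.

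Deviations from the group means correlated between libraries of the same number (Pearson's r across genes of 0.115, 0.164 and 0.342 for replicates 1, 2 and 3). For 5 of the 6 libraries, the highest r with the other group was with the same number. As deviations within a group cancel out, a shift shared by the replicate 3 libraries alone also raises r for replicates 1 and 2. The r of replicates 1 and 2 thus does not show a pairing of its own. With this limit, the replicate number was also used as a block. The alternatives were a pseudocount of 0.1, no filter, quantile normalization, rescaling without mitochondrially encoded genes, no trend, the block, other thresholds, another motif and leaving out libraries. Voom (genes with at least 10 reads over the 6 libraries, mitochondrially encoded genes left out) and leaving out pairs were added after the values had been seen. Sequences and promoters came from RefSeq (GRCh38.p14). Single values of some listed genes are not reported here.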

Additional observations from a re-analysis of the deposited data

How the results depend on the processing

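With each library or each same-numbered pair left out, 0 targets had an adjusted or unadjusted p under 0.05 in limma, and 0 to 1 genes were DEGs (adjusted p under 0.05 and at least 2-fold). The number of DEGs among all genes was 1 (RCVRN), and it was 6 without the filter, 6 without the trend and 5 with voom and the replicate block. The study itself reported more DEGs between these lines with another test, on read counts (DESeq2), so that these numbers hold only for the fits used here. The number of targets with an unadjusted p under 0.05 was 0, and it was 1 with quantile normalization, 1 with rescaled TPM, 1 with the replicate block, 6 with the replicate block on rescaled TPM, 2 with voom, and 12 with voom and the replicate block, where 3 had an adjusted p under 0.05. The cause of these moves was not tested. The share of all tested genes with an unadjusted p under 0.05 was not counted with quantile normalization or with libraries left out. The counts of targets in those fits therefore have no scale. In limma on deposited TPM, the replicate block changed no other call of a target. The voom fits with the replicate block and 1 pair left out had 1 residual degree of freedom and p-values too small to be credible, so that they are given as values with no test: the log2 difference was 0.18 to 0.29 for AKR1C2, 0.20 to 0.34 for AKR1B10 and 0.11 to 0.13 for ALDH1A1.

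Leaving out libraries reversed the sign of the log2 difference for several targets. The range was -0.073 to 0.52 for AKR1C2, -0.065 to 0.34 for AKR1C3, -0.0098 to 0.54 for AKR1B10, -0.016 to 0.27 for ALDH1A1, -0.083 to 0.19 for FTL, -0.016 to 0.21 for GCLM, -0.16 to 0.30 for PRDX1, -0.14 to 0.29 for PGD, -0.13 to 0.29 for TKT, -0.043 to 0.21 for NQO1, -0.072 to 0.29 for UGDH, -0.0018 to 0.18 for NFE2L2 and -0.083 to 0.11 for AKR1B1. All values below 0 came without A549 MOCK replicate 3, except for NFE2L2, where it was A549 Rec replicate 3, and AKR1B1, which was below 0 without either A549 MOCK replicate 3 or both replicate 3 libraries. AKR1B1 was also below 0 with quantile normalization (-0.036), with rescaled TPM with and without the replicate block (-0.0089), and with voom (-0.0016) and voom with the replicate block (-0.0022). AKR1C1 (0.013 to 0.47) and ALDH3A1 (0.11 to 0.43) stayed above 0, with the lowest value of both again without A549 MOCK replicate 3.

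The summed share of the targets averaged 7.50% over the MOCK libraries (6.93 to 8.43% with 1 left out) and 7.96% over the Rec libraries (7.58 to 8.49%). It was 9.45% and 9.83% on rescaled TPM and 2.49% and 2.71% without FTL and FTH1. With the less specific motif TGANNNNGC, 65.6% of the targets held a match, against 47.1% of all genes. The number of targets within the 100 highest genes was 11 with or without mitochondrially encoded genes. Depth limited SRXN1, UGT1A6 and GSTM3, which had 8 to 50 reads per library.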
